A study of Mus musculus with 10 samples.

Results

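The 10 genes described here encode the 5 subunits of the transcription factor NF-kB (Nfkb1, Nfkb2, Rel, Rela and Relb) and 5 of its inhibitors (Nfkbia, Nfkbib, Nfkbie, Nfkbiz and Tnfaip3). They were chosen by symbol from 53656 genes counted by RNA sequencing in 10 libraries of mouse CD4 T cells, 6 of TOX knockout (KO) and 4 of TOX wild type (WT) cells. All of the cells carried the transgenic SMARTA T cell receptor, and naive cells of both genotypes had been transferred into B6 mice that were treated with cytoxan and bore B16-GP61 melanoma. They were sorted from the tumour-draining lymph node (tdLN) 11 days after transfer. KO cells were taken as Ly5.1+ Ly5.2- and low for PD1, LAG3 and CD39. WT cells were taken as Ly5.1+ Ly5.2+ and high for those 3 surface proteins. Genotype, gate and congenic marker therefore cannot be told apart, and no animal is named behind a replicate, so the p-values reflect variation among libraries alone, some of it possibly technical. Host age, host sex and the construction of the Tox deletion are not given in the sources used here.

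NF-kB proteins bind DNA as dimers. Rela, Rel and Relb carry an activation domain, while Nfkb1 and Nfkb2 encode the precursors p105 and p100, which are processed to p50 and p52 and also hold dimers back through ankyrin repeats of their own. IkB alpha, beta and epsilon (Nfkbia, Nfkbib and Nfkbie) retain dimers in the cytoplasm until the IKK kinase complex marks them for degradation. IkB zeta (Nfkbiz) acts in the nucleus on the DNA-bound factor, and A20 (Tnfaip3) edits ubiquitin chains upstream of IKK. In T cells the canonical route is switched on by the antigen receptor and by costimulation, and several of the inhibitor genes are themselves targets of the factor, which closes a feedback loop.

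Nfkb2, Nfkbia and Nfkbie are shown by the sequence upstream of their first base because their transcript levels are compared below and because each window holds a match to the kappaB consensus, the DNA element that NF-kB dimers bind. The sequences are the 250 bases upstream of a RefSeq start, on the GRCm38.p6 build. They lie at chr19:46304487-46304736 on the plus strand for Nfkb2, the first of 3 starts listed for that gene, at chr12:55492648-55492897 on the minus strand for Nfkbia, and at chr17:45555450-45555699 on the plus strand for Nfkbie. Each reads 5′ to 3′ along its gene, with matches to the consensus on either strand in capitals.
Nfkb2: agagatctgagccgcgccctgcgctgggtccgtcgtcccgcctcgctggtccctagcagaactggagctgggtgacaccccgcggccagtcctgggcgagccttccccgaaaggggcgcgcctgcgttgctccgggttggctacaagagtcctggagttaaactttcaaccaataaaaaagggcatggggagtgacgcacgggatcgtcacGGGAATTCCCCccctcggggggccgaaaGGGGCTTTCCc
Nfkbia: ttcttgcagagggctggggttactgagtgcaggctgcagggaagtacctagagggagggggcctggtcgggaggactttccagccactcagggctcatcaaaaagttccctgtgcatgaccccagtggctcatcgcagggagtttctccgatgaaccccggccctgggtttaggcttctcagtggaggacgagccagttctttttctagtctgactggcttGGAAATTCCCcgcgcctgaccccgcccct
Nfkbie: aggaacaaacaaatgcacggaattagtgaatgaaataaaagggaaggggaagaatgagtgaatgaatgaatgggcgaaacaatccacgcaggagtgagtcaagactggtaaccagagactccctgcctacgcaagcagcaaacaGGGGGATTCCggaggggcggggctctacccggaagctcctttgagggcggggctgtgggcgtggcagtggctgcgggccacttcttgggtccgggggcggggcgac
The capitals in the Nfkb2 window cover overlapping matches and a separate one near the start. RefSeq entries were matched for 7 of the 10 genes, and 5 of those 7 held the consensus in at least 1 window (Nfkb2, Rel, Nfkbia, Nfkbie and Tnfaip3), while Rela and Nfkbib did not. Among the 8790 tested genes with an entry, 933 (10.6%) held it. A match describes the letters of the window and does not show binding.

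Depth was 36028980 to 55784453 counts in KO and 31939816 to 45481478 in WT. Levels of a gene in a library are given as CPM, its count relative to the library's TMM-scaled total. Tox, the targeted gene, stood between 15.3 and 68.0 CPM in KO libraries and at 170, 357, 172 and 245 CPM in WT libraries, a log2 difference of -2.93 (SE 0.48, edgeR adjusted p = 0.010). T cell markers summed to 20310 to 25895 CPM in KO and 9245 to 19177 CPM in WT. B cell markers summed to 80.1 to 318 CPM in KO and 2616 to 10619 CPM in WT, and 7 of 10 were lower in KO by the test. Myeloid and dendritic cell markers summed to 144 to 373 CPM in KO and 1789 to 7400 CPM in WT, with 3 of 14 lower and Clec9a at 0 in every KO library. Plasma cell markers summed to 10.8 to 57.9 CPM in KO and 321 to 5533 CPM in WT, with 2 of 4 lower and Tnfrsf17 at 0 in every KO library. NK cell markers summed to 168 to 274 CPM in KO and 14.9 to 66.5 CPM in WT, of which Klrb1c, the 1 gene of 3 called higher, made up 167 to 273 CPM in KO, while Ncr1 and Eomes had negative fold changes that did not pass the test. B cells and myeloid cells also express NF-kB genes, and the part of these markers in the results was not tested. In such bulk samples fewer cells of a type and less RNA per cell cannot be told apart.

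The libraries also differed with the GC content of genes. When tested genes of at least 8 CPM were put in 5 bins of GC content, the richest bin had in WT replicates 2 and 4 a median deviation of -1.32 and -1.23 on the log2 scale from the mean of all libraries, against 0.01 to 1.08 in the KO libraries, 0.55 in WT replicate 1 and -0.16 in WT replicate 3. Over the bins from low to high GC content, the median log2 fold change of KO against WT went through -0.54, -0.21, -0.03, 0.29 and 0.78. Nfkb2, Rela, Relb and Nfkbib have transcripts of 58.8 to 59.8% GC and lie in the richest bin, and Nfkbie, at 55.7%, lies at its lower edge. Values with the GC trend removed in each library are therefore given beside the members.

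**Figure D1:**
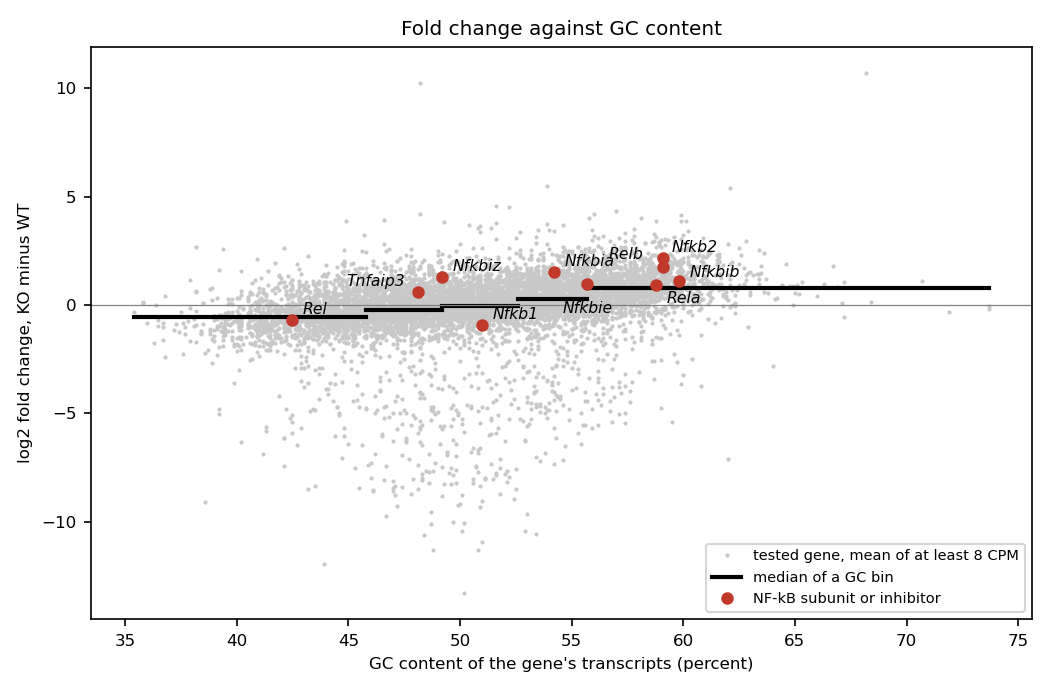
Log2 fold change of KO against WT (vertical axis) against transcript GC content in percent (horizontal axis) for tested genes, with the 10 NF-kB genes marked by name and black bars for the median of each of 5 GC bins. Genes shown have a mean of at least 8 CPM. The median climbs through -0.54, -0.21, -0.03, 0.29 and 0.78 over 5 bins of GC content, and the GC-rich members lie where that median is positive.

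None of the 10 genes passed the test between KO and WT (edgeR, adjusted p under 0.05 over 14214 tested genes, of which 3.13% passed, 0.429% higher and 2.7% lower), and the smallest adjusted p was 0.08. At an unadjusted p under 0.05 there were 6 members, 5 of them with a positive fold change, against 18% of all tested genes. All 10 members passed the filter on low counts. The log2 fold change was positive for 8 of 10 members, against 45.7% of tested genes, and the median was 1.02, against -0.12. Scaled to T cell receptor complex genes, which moved the median of all genes by -0.80, it was positive for 7 with Tnfaip3 turning to -0.33, and after removal of the GC trend 7 were positive, with Rela turning to -0.72 and a members' median of 0.55. Under that receptor scaling 17 of all genes were called higher and 1862 lower, against 61 higher and 384 lower with TMM factors. Rela was the member whose KO libraries all lay above all WT libraries, a pattern of 2.59% of tested genes, and Nfkb1 the member whose KO libraries all lay below, a pattern of 6.31%. DESeq2, which called 11.3% of all genes, called 3 members, with Nfkb2 and Nfkbiz higher and Nfkb1 lower. Limma-voom with quality weights, which called 37.5% of all genes, called all but Rel and Tnfaip3, with Nfkb1 lower and the other 7 higher. Without WT replicates 2 and 4 edgeR called 0 members, and of 15313 tested genes it called 1 higher and 51 lower. In that fit 2 members had an unadjusted p under 0.05, against 1257 of all tested genes.

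**Figure D2:**
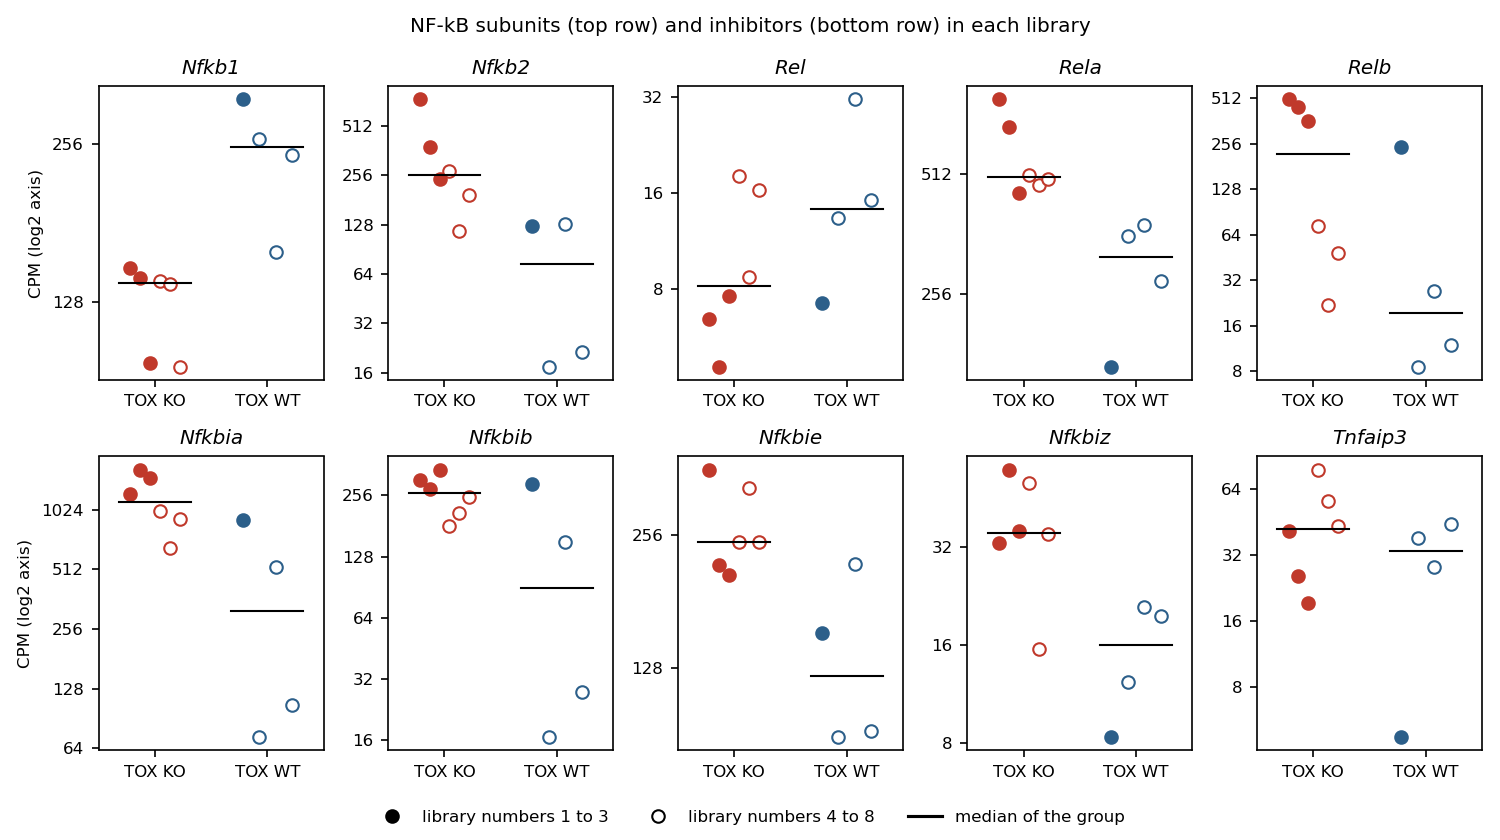
CPM of each NF-kB gene in every library on a log axis, KO libraries left of WT libraries, with 1 point per library, filled for library numbers 1 to 3 and open for 4 to 8, and a line at the group median. Rela separates with KO above WT and Nfkb1 separates with KO below WT, while the other 8 genes overlap.

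Nfkb1, the gene of p105 and p50, had fewer CPM in all 6 KO libraries than in any WT library. As TPM (counts per kilobase scaled to 1 total in every library, without TMM factors), the groups overlapped, with 35.4 TPM in KO replicate 4 and 33.4 TPM in WT replicate 3. The length of a gene is the same in every library, so the separation depended on the scaling between libraries. Nfkb1 (GRCm38 chromosome 3, 135584655 to 135691547, minus strand) had 96.2 CPM in the lowest KO library, a median of 139 and 149 in the highest, against 311, 262, 159 and 243 CPM in WT replicates 1 to 4. The lowest WT library was replicate 3, and the highest KO library lay just under it. The means were 127 ± 23.7 CPM in KO (SD, n = 6) and 244 ± 63.4 CPM in WT (SD, n = 4), a log2 difference of -0.94 (SE 0.25, 95% interval -1.498 to -0.38, edgeR adjusted p = 0.08). Without WT replicate 3 it passed the test, at -1.09 (edgeR adjusted p = 0.033). Nfkb1 passed it too with the GC trend removed, at -1.04 (edgeR adjusted p = 0.043), where 4.32% of tested genes were called. It did so again under the T cell receptor complex scaling, at -1.61 (edgeR adjusted p = 0.012), where 13.2% of tested genes were called. With the GC trend removed and a term for library number Nfkb1 stood at -1.07 (edgeR adjusted p = 0.030), where 5.06% were called. Over 27 alternatives Nfkb1 ranged from -1.61 to -0.63 and passed in 6. Beside these levels, the B cell markers summed to 2616, 10619, 7071 and 6433 CPM in WT replicates 1 to 4, and their part in the Nfkb1 difference was not tested.

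Rela encodes p65, the main activating partner of p50. Rela (GRCm38 chromosome 19, 5637483 to 5648130, plus strand) had 458 CPM in the lowest KO library, a median of 503 and 787 in the highest, against 169, 359, 382 and 276 CPM in WT. Every KO library lay above the highest WT library. Its means were 567 ± 132 CPM in KO (SD, n = 6) and 296 ± 96.5 CPM in WT (SD, n = 4), a log2 difference of 0.94 (SE 0.29, 95% interval 0.30 to 1.57, edgeR adjusted p = 0.12). Rela was the member whose direction turned when the GC trend was removed, to -0.72 (edgeR adjusted p = 0.49), and its transcript holds 58.8% GC. Its direction in these libraries therefore depended on that correction.

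Nfkb2, the gene of p100 and p52 in the noncanonical route, had the largest fold change of the 10 over all libraries with TMM factors. For Nfkb2 (GRCm38 chromosome 19, 46304737 to 46312090, plus strand) the lowest KO library held 117 CPM, the median was 258 and the highest 745, against 126, 17.5, 130 and 21.5 CPM in WT. KO replicate 5 lay below WT replicates 1 and 3, so the groups overlapped. The means were 325 ± 223 CPM in KO (SD, n = 6) and 73.6 ± 62.5 CPM in WT (SD, n = 4), and the log2 fold change of 2.14 had an SE of 0.73 (95% interval 0.53 to 3.76, edgeR adjusted p = 0.16). WT replicates 2 and 4, low in GC-rich genes, held the least Nfkb2. With the GC trend removed Nfkb2 stood at 1.07 (edgeR adjusted p = 0.12), below Nfkbiz at 1.33 and Nfkbia at 1.30, and without those 2 libraries at 1.37 (edgeR adjusted p = 0.66). Without WT replicate 1 Nfkb2 stood at 2.53 and Relb above it at 3.94.

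Relb, the partner of p52 in the noncanonical route, split by library number more than by genotype. Relb (GRCm38 chromosome 7, 19606217 to 19629438, minus strand) had 504, 450 and 362 CPM in KO replicates 1 to 3 and 73.3, 22.1 and 48.5 CPM in KO replicates 4 to 6, against 244 CPM in WT replicate 1 and 8.61, 27.2 and 11.9 CPM in WT replicates 2 to 4. The first 3 KO replicates and WT replicate 1 carry library numbers 1 to 3 in the labels, and all other libraries carry numbers 4 to 8. Relb was high in every library of the low numbers and low in every library of the high numbers, in both genotypes. In a fit with both terms, the difference of numbers 1 to 3 over numbers 4 to 8 was 3.45 on the log2 scale (SE 0.42, 95% interval 2.52 to 4.39, edgeR adjusted p = 0.000413). In that comparison 14% of tested genes and 2 of the 10 members passed. The richest GC bin, which holds Relb, deviated by 1.08, 0.64 and 0.50 in KO replicates 1 to 3 and by 0.55 in WT replicate 1. It deviated by 0.20, 0.01 and 0.18 in KO replicates 4 to 6 and by -1.32, -0.16 and -1.23 in WT replicates 2 to 4. The part of GC content in the difference by library number was not tested. The genotype difference was 1.74 (SE 1.17, edgeR adjusted p = 0.47) without the library term and 1.33 (edgeR adjusted p = 0.12) with it. It was 3.94 without WT replicate 1 (edgeR adjusted p = 0.055). Removal of the GC trend left Relb, with 59.1% GC, at 1.06 (edgeR adjusted p = 0.49), and at 0.42 (edgeR adjusted p = 0.44) with the library term besides. What the library numbers stand for is not given in the labels, and the low numbers hold 1 WT library.

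The other member that differed with library number was Tnfaip3, in the opposite direction. Tnfaip3 (GRCm38 chromosome 10, 19000910 to 19015657, minus strand) had 40.9, 25.5 and 19.2 CPM in KO replicates 1 to 3 and 78.1, 56.4 and 43.4 CPM in KO replicates 4 to 6, against 4.71 CPM in WT replicate 1 and 38.2, 28.1 and 44.4 CPM in the other WT libraries. Within each genotype the libraries of low number held less. The difference of numbers 1 to 3 over numbers 4 to 8 was -1.59 (SE 0.46, edgeR adjusted p = 0.049). Between KO and WT the log2 fold change was 0.61 (SE 0.59, edgeR adjusted p = 0.63). It was 1.21 (edgeR adjusted p = 0.18) with a term for numbers 1 to 3 against 4 to 8. Tnfaip3 stood at 0.25 without WT replicate 1 (edgeR adjusted p = 0.73) and at 0.70 after removal of the GC trend (edgeR adjusted p = 0.56).

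Rel, which encodes c-Rel, was the subunit with the lowest level per length in both groups. Rel (GRCm38 chromosome 11, 23736847 to 23770970, minus strand) had 4.57 CPM in the lowest KO library, a median of 8.15 and 18.1 in the highest, against 7.22, 13.3, 31.4 and 15.2 CPM in WT. The groups overlapped over most of their range. Its log2 fold change was -0.71 (SE 0.55, 95% interval -1.91 to 0.50, edgeR adjusted p = 0.53), and with 42.5% GC its transcript is the least GC-rich of the 10. Rel stood at -0.21 after removal of the GC trend (edgeR adjusted p = 0.86) and likewise at -0.21 without WT replicate 3 (edgeR adjusted p = 0.89).

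Nfkbia, the gene of IkB alpha, had the highest median level per length of the 10 in both groups, although Rela exceeded it in WT replicates 2 and 4. Nfkbia (GRCm38 chromosome 12, 55489410 to 55492647, minus strand) had 658 CPM in the lowest KO library, a median of 1122 and 1633 in the highest, against 909, 72.8, 524 and 106 CPM in WT. All KO libraries except KO replicate 5 lay above all WT libraries, and KO replicate 5 lay below WT replicate 1. The means were 1157 ± 367 CPM in KO (SD, n = 6) and 403 ± 395 CPM in WT (SD, n = 4), a log2 difference of 1.52 (SE 0.66, 95% interval 0.06 to 2.98, edgeR adjusted p = 0.26). Nfkbia stood at 1.30 with the GC trend removed (edgeR adjusted p = 0.25) and at 0.74 without WT replicates 2 and 4 (edgeR adjusted p = 0.68). Without WT replicate 1 it stood at 2.31 (edgeR adjusted p = 0.05, not under the threshold).

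Nfkbib, the gene of IkB beta, followed the same order of WT libraries as Nfkbia. Nfkbib (GRCm38 chromosome 7, 28758251 to 28767512, minus strand) had 181 CPM in the lowest KO library, a median of 263 and 342 in the highest, against 291, 16.5, 152 and 27.7 CPM in WT. WT replicate 1 lay inside the KO range and the other WT libraries below it. Its highest over its lowest library was 1.89 in KO and 17.6 in WT, against medians of 3.06 in KO and 4.39 in WT over 8099 genes of at least 8 CPM. The log2 fold change was 1.10 (SE 0.69, edgeR adjusted p = 0.44), at 0.38 with the GC trend removed (edgeR adjusted p = 0.61). When WT replicate 1 was left out it was 1.99 (edgeR adjusted p = 0.074). It was 0.29 without WT replicates 2 and 4 (edgeR adjusted p = 0.92). Of its 2169 bases, 314 overlap RP23-36D15.4 and 42 overlap Sirt2 on the other strand, and since counting ignored strand, reads from those stretches cannot be told apart.

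Nfkbie, the gene of IkB epsilon, varied less between libraries than IkB alpha or beta did in WT. Nfkbie (GRCm38 chromosome 17, 45555716 to 45563169, plus strand) had 208 CPM in the lowest KO library, a median of 247 and 361 in the highest, against 153, 89.1, 220 and 91.9 CPM in WT. WT replicate 3 lay just above the lowest KO libraries, and the other WT libraries lay below all of KO. Its means were 268 ± 61.8 CPM in KO (SD, n = 6) and 139 ± 61.9 CPM in WT (SD, n = 4), a log2 difference of 0.95 (SE 0.32, 95% interval 0.24 to 1.66, edgeR adjusted p = 0.16). Without WT replicate 3 it passed the test, at 1.27 (edgeR adjusted p = 0.046), and after removal of the GC trend it stood at 0.40 (edgeR adjusted p = 0.45).

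Nfkbiz, the gene of nuclear IkB zeta, kept its value when the GC trend was removed. Nfkbiz (GRCm38 chromosome 16, 55811375 to 55838899, minus strand) had 15.6 CPM in the lowest KO library, a median of 35.5 and 55.3 in the highest, against 8.36, 12.4, 21.0 and 19.7 CPM in WT. Only KO replicate 5 lay inside the WT range, and the other KO libraries lay above it. The means were 37.6 ± 14.1 CPM in KO (SD, n = 6) and 15.4 ± 6.02 CPM in WT (SD, n = 4), a log2 difference of 1.29 (SE 0.44, 95% interval 0.32 to 2.26, edgeR adjusted p = 0.16), against 1.33 with the GC trend removed (edgeR adjusted p = 0.13). Its transcript holds 49.2% GC.

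**Figure D3:**
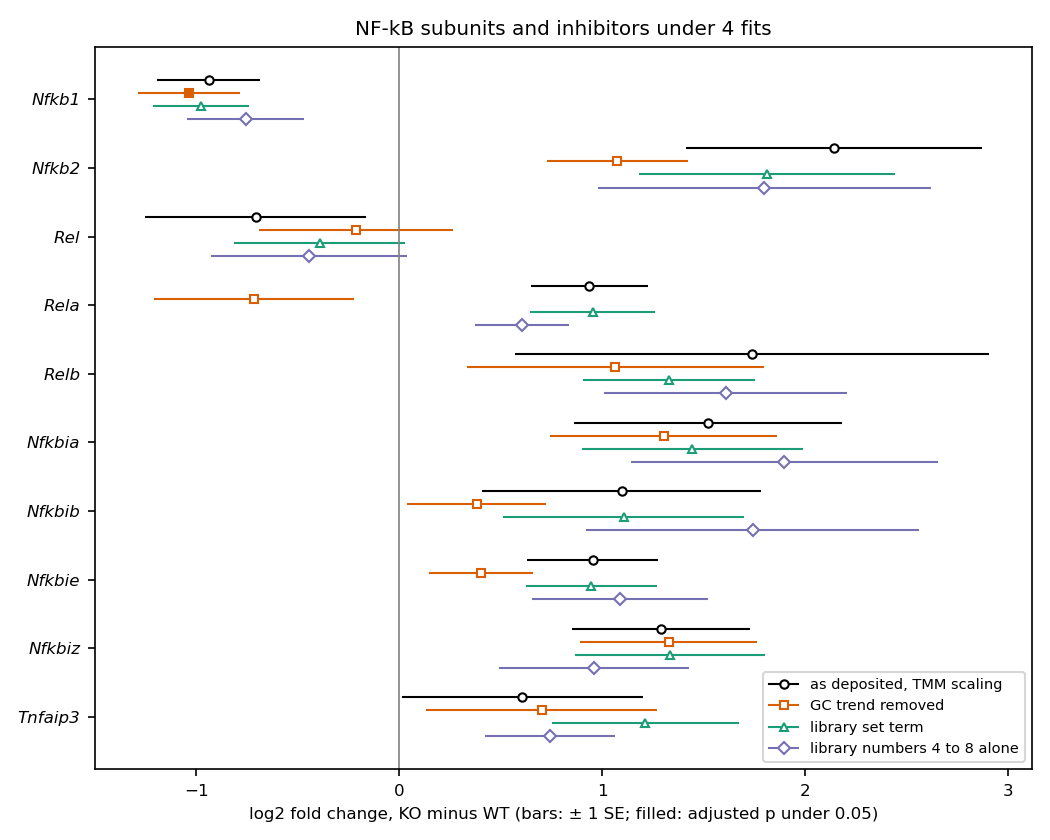
Log2 fold change of KO against WT for each NF-kB gene under 4 fits, with bars of 1 SE either way and filled markers where the adjusted p is under 0.05. Nfkb1 stays negative, at -0.94 with TMM factors and -1.04 with the GC trend removed, and Rela turns from 0.94 to -0.72 when the trend is removed.

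The libraries fall into numbers 1 to 3 (KO replicates 1 to 3 and WT replicate 1) and numbers 4 to 8 (the other 3 KO and 3 WT libraries), and the comparison was repeated within each set. Within numbers 4 to 8, where 8.03% of tested genes were called, edgeR called 0 members. At an unadjusted p under 0.05 there were 5 members in that set, against 3488 of its 14378 tested genes. The fold changes had the sign they had over all libraries for all 10 members in both sets. Nfkb1 stood at -0.76 (edgeR adjusted p = 0.17) within numbers 4 to 8 and at -1.23 (0.12) within numbers 1 to 3, and Rela at 0.61 (0.18) and 1.96 (0.083) in that order of sets. Nfkb2 differed little between the sets, at 1.80 and 1.90. Nfkbia and Nfkbib were larger within numbers 4 to 8, at 1.90 and 1.74, than within numbers 1 to 3, at 0.71 and 0.12, while Nfkbiz and Tnfaip3 were larger within numbers 1 to 3, at 2.35 and 2.64, than within numbers 4 to 8, at 0.96 and 0.74. Nfkbie stood at 1.09 within numbers 4 to 8 and 0.81 within numbers 1 to 3. These differences between sets were not tested, and the set of low numbers rests on 1 WT library, which was taken to vary like the KO libraries.

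Levels were compared between genes in TPM. In KO, Nfkbia had a median of 1890 TPM and exceeded Rela, at 532 TPM, in 6 of 6 libraries without overlap, and Rela exceeded Nfkbib, at 302 TPM, likewise. Nfkbib and Nfkbie, at 290 TPM, did not differ beyond their spread, and neither did Nfkbie and Nfkb2, at 212 TPM, or Nfkb2 and Relb, at 137 TPM. Nfkb1, Nfkbiz, Tnfaip3 and Rel followed at 28.9, 17.6, 14.8 and 2.81 TPM, and the ranges of neighbours in that order overlapped. Within libraries, Nfkb1 exceeded Nfkbiz and Tnfaip3 exceeded Rel in 6 of 6, while Nfkbiz exceeded Tnfaip3 in 4 of 6. In WT the median order was Nfkbia at 470 TPM, Rela at 255, Nfkbie at 106, Nfkbib at 99.8, Nfkb2 at 42.8, Nfkb1 at 42.5, Relb at 11.6, Tnfaip3 at 10.4, Nfkbiz at 6.60 and Rel at 4.05 TPM. The ranges of all neighbours in the WT order overlapped. Nfkbia exceeded Rela in 2 of 4 WT libraries and Nfkbib exceeded Nfkb2 in 4 of 4, while the other neighbours kept their order in 2 or 3.

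The makeup of the 5 subunits was then described as each gene's percent of their summed TPM, which does not depend on the scaling between libraries. Rela was the largest share in every KO library, at 44.0 to 76.6%, and took 32.7, 81.0, 68.8 and 76.1% in WT replicates 1 to 4, where Relb at 33.0% was level with it in replicate 1. Nfkb1 took 1.87 to 4.98% in KO and 6.46 to 15.1% in WT, so its share in every KO library was below that in every WT library. The ratio of Rela to Nfkb1 was 15.4 to 23.5 in KO, with a median of 20.9, and 2.41, 6.08, 10.6 and 5.03 in WT replicates 1 to 4. Nfkb2 over Nfkb1 was 3.11 to 18.4 in KO and 1.48, 0.244, 2.98 and 0.325 in WT. Neither ratio overlapped between the groups, but both set a GC-rich transcript against one of 51.0% GC. With the GC trend removed, as given above, Rela and Nfkb1 both had negative fold changes, while that of Nfkb2 stayed positive. The ratios were not computed with the trend removed, and the part of GC content in them was not tested. The ratio of Nfkbia to Nfkbib overlapped between groups, at 4.25 to 8.03 in KO and 4.22 to 5.93 in WT.

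**Figure D4:**
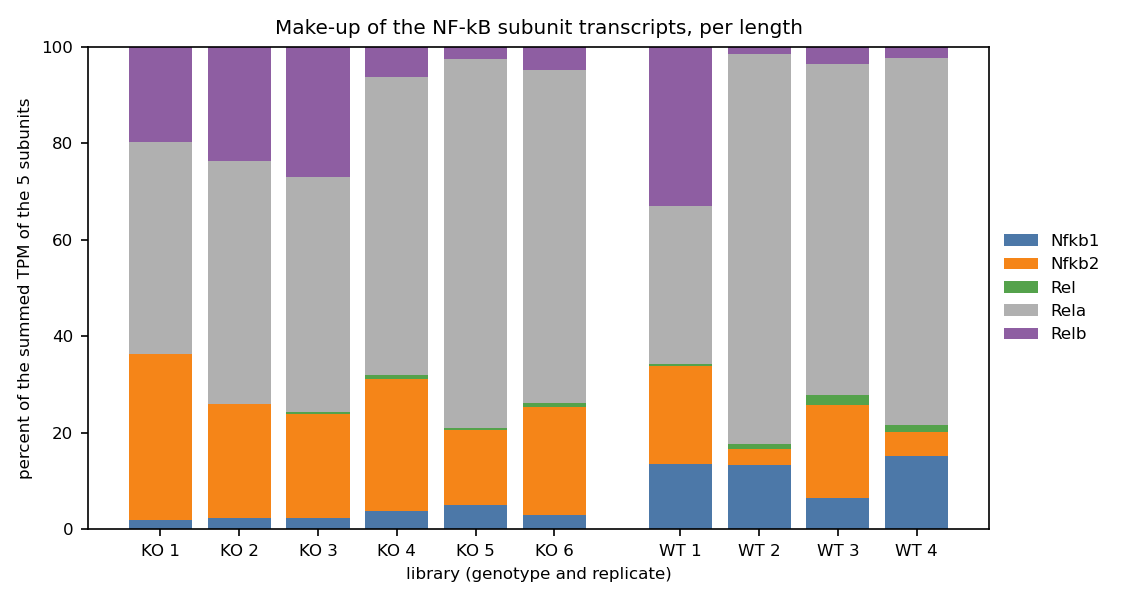
Share in percent of the summed TPM of the 5 NF-kB subunit genes in each library, KO libraries left of WT libraries. The Nfkb1 share is 1.87 to 4.98% in KO and 6.46 to 15.1% in WT, and the Relb share is high in KO replicates 1 to 3 and WT replicate 1.

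Over the 10 libraries, which share a GC trend, a library number split and the genotype contrast, Pearson correlations of log2 CPM between members ranged from -0.752 for Nfkb1 with Nfkbiz to 0.979 for Nfkbia with Nfkbib. Within the 6 KO libraries the second pair stood at 0.690. Nfkb2 with Nfkbia stood at 0.942 over all libraries and 0.674 within KO. Nfkb1 with Rela stood at -0.722 over all libraries and 0.628 within KO. Among 7671 candidate genes, those most like Nfkb1 were Asf1b (0.951), Alg14 (0.928) and Aaas (0.910). Those most like Rela were Letmd1 (0.976), Elf4 (0.964) and Sema4f (0.963). The ones closest to Nfkbie were Naprt (0.983), Surf6 (0.983) and Tor4a (0.979), and to Nfkbia Nudt18 (0.996), Alkbh6 (0.994) and Zfpl1 (0.993). These values are descriptions over 10 libraries and carry no test.

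Beyond the 10 members, 77 further genes of the pathway were listed and 76 were tested (all but Tab3). Of these 2 were higher and 2 lower in KO, 5.26% against the 3.13% of all tested genes, and 41 fold changes were positive and 35 negative. Among 12 other IkB-like proteins and brakes, 1 was higher and 0 lower, with a median log2 fold change of 0.45. The one called was Nfkbid, the gene of IkB NS, a nuclear relative of IkB zeta. Nfkbid had 293 CPM in the lowest KO library and 913 in the highest, against 147, 34.7, 142 and 23.5 CPM in WT, with no overlap. Its log2 fold change was 2.62 (edgeR adjusted p = 0.045). Removal of the GC trend left it at 1.93 (edgeR adjusted p = 0.010). The Nfkbid call was kept without WT replicate 1 (edgeR adjusted p = 0.022) or WT replicate 3 (0.042) and lost in each of the 8 other fits that left out 1 library, the largest adjusted p being 0.109. Tnip1, which partners A20, stood at 0.48 (edgeR adjusted p = 0.62).

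Among 9 tested genes of the IKK complex and the kinases above it, 1 was higher and 0 lower, with a median log2 fold change of -0.05. It was Ikbke, an IKK-related kinase known mainly from interferon induction. Ikbke had 360 CPM in the lowest KO library and 809 in the highest, against 158, 210, 265 and 202 CPM in WT, with no overlap, and its log2 fold change was 1.48 (edgeR adjusted p = 0.021). Its adjusted p was 0.053 without KO replicate 1, 0.080 without WT replicate 2 and 0.102 without WT replicate 4, and it was 0.031 with the GC trend removed. Scaled to T cell receptor complex genes neither Nfkbid (1.90, edgeR adjusted p = 0.10) nor Ikbke (0.61, edgeR adjusted p = 0.37) passed. Ikbkb, the catalytic kinase of the canonical complex, stood at -0.55 (edgeR adjusted p = 0.65).

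The 4 genes that lead from the antigen receptor to IKK gave 0 calls in edgeR with a median of 0.31 (2 at an unadjusted p under 0.05, 1 called by DESeq2 and 2 by limma-voom), Bcl10 standing at 0.46 (edgeR adjusted p = 0.27). The 10 TRAF, cIAP and RIP adaptors gave 0 calls in edgeR with a median of 0.40 (1 at an unadjusted p under 0.05, 0 called by DESeq2 and 4 by limma-voom), Traf1 standing at 0.57 (edgeR adjusted p = 0.32) and Traf2 at 0.37 (0.59). The 6 adaptors of Toll-like and interleukin-1 receptors gave 0 calls in edgeR with a median of 0.22, and 1 had an unadjusted p under 0.05. Of these Myd88, the adaptor shared by most of those receptors, had 444 to 585 CPM in KO and 348, 171, 338 and 226 CPM in WT without overlap, at 1.00 (edgeR adjusted p = 0.06). Myd88 did pass with DESeq2 (adjusted p = 0.00066), with limma-voom (0.00049), and in edgeR without genes under a mean of 8 CPM (0.038), without WT replicate 1 (0.019) or without WT replicate 3 (0.042). These were 5 of 26 alternatives, and it did not pass in the other 21. Scaled to T cell receptor complex genes Myd88 stood at 0.18 (edgeR adjusted p = 0.775). Irak2 stood at 0.24 (edgeR adjusted p = 0.87).

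Among 9 receptors of the TNF family, 0 were higher and 1 lower in edgeR, with a median of -0.05. At an unadjusted p under 0.05 there were 4, against 18% of all tested genes. DESeq2 called 3 of the list and 11.3% of all genes, and limma-voom 5 of the list and 37.5% of all genes. The gene called lower in edgeR was Tnfrsf13c, the BAFF receptor of B cells. Tnfrsf13c had 0 to 9.24 CPM in KO against 79.3, 80.6, 185 and 92.5 CPM in WT, a log2 difference of -4.69 (edgeR adjusted p = 0.046), beside the B cell marker sums of 80.1 to 318 CPM in KO and 2616 to 10619 CPM in WT, whose part was not tested. Its call was kept without KO replicate 5 (edgeR adjusted p = 0.0086) or WT replicate 1 (0.027) and lost in each of the 8 other fits that left out 1 library, the largest adjusted p being 0.112. The T cell costimulatory receptor OX40 (Tnfrsf4) stood at -0.77 (edgeR adjusted p = 0.30) and TNF receptor 2 (Tnfrsf1b) at 1.15 (0.17).

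Among 26 NF-kB target genes of lymphocytes, 0 were higher and 1 lower in edgeR, with a median of -0.14, near that of all tested genes. At an unadjusted p under 0.05 there were 10, in both directions, against 18% of all tested genes. DESeq2 called 7 of the list and 11.3% of all genes, and limma-voom 14 of the list and 37.5% of all genes. The gene called lower in edgeR was Ier3, an immediate early response gene. Ier3 had 0.665 to 3.67 CPM in KO against 30.8, 6.45, 10.9 and 15.5 CPM in WT, without overlap, a log2 difference of -3.39 (edgeR adjusted p = 0.021). Its adjusted p was 0.055, 0.057, 0.050 and 0.054 without KO replicates 1, 2, 4 and 5 and 0.075 without WT replicate 4, and the call was lost there. Ltb, the most abundant of the list and the gene of lymphotoxin beta, stood at 1.38 (edgeR adjusted p = 0.58), and Ccr7, a homing receptor, at 0.88 (0.27).

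**Figure D5:**
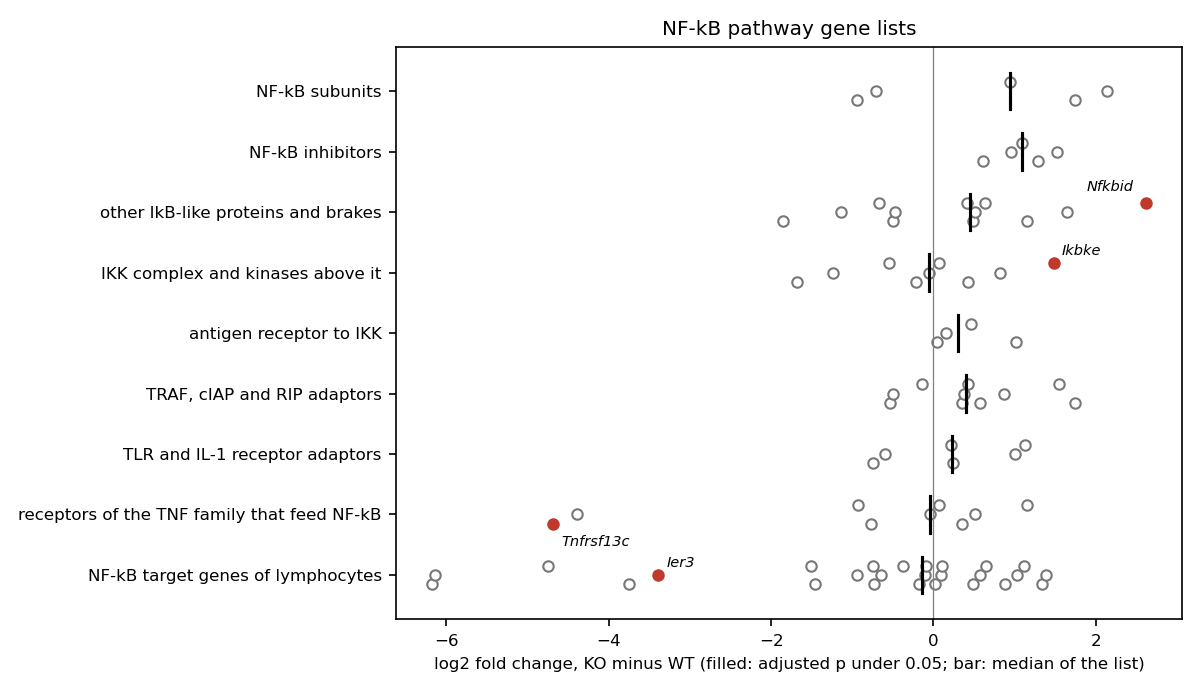
Log2 fold change of KO against WT for the 10 NF-kB genes and 76 other tested genes of the pathway, 1 row per list, with the genes that passed the test named. Nfkbid and Ikbke lie to the right of 0 and Tnfrsf13c and Ier3 to the left, and no member passed.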

How the data were processed

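RNA sequencing of 6 KO and 4 WT libraries was analysed. Per the labels' protocols, cDNA came from SMART-seq V4 amplification and was sequenced as paired ends. The deposited values are raw counts per gene, for which the authors ran featureCounts 1.6.2 against GENCODE M17 (GRCm38.p6), per the file headers, which set no strand option and left out reads matching several places. FastQC and STAR are named without a version in the submitters' processing notes. The deposited length column gave the lengths in bases.

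Counts were scaled with TMM factors, filtered with filterByExpr and tested with the quasi-likelihood F test of edgeR 4.0.16 (limma 3.58.1, R 4.3.3), with genotype as the term and Benjamini-Hochberg adjustment over 14214 genes at 0.05. Fold changes are KO minus WT in log2, in edgeR with the default prior count of its fit, and SE is the fold change over the root of F. A prior count of 2 was used for log2 CPM. The GC trend was removed with a lowess of span 0.3 on GENCODE M21 transcript GC (11629 genes, 81.8% of those tested). DESeq2 1.42.0, limma-voom, other scalings and filters, terms for library number and leaving out each library were alternatives; the GC correction and the fit without WT replicates 2 and 4 were chosen after seeing the data. Intervals cover the spread between libraries. When changes were simulated, the same steps recovered 0% of those of 2-fold, 18% of 4-fold, 48% of 8-fold and 70% of 16-fold. Of the calls made there, 5.56% were false. Changes of 2-fold and 4-fold were therefore mostly missed. No pair of libraries of 1 group differed by as little as sampling noise.

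The members and lists were chosen with earlier results of these data known. Named genes were Tox, the members, the called and the 2 most abundant genes of each list, and the 3 genes most correlated with each of 4 members; markers are given as sums. A gene that the rule names is not reported here.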

Additional observations from a re-analysis of the deposited data

Results flagged for a closer look

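Relb in WT replicate 1 stood at 243.9 CPM, far from the other 3 WT libraries, the nearest of which held 27.2 CPM. The gap was 0.921 of the range of the 4 WT libraries. Chance sets apart about 1 in 20 groups by this measure. It was applied to every member in KO and in WT and flagged this value alone, so a flag of this kind could arise by chance. WT replicate 1 is the WT library with a number from 1 to 3, and the KO libraries with those numbers held 362 to 504 CPM of Relb.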

How the results depend on the processing

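Of the members' values under alternatives, 251 kept direction and side of the threshold, 16 newly passed it and 3 reversed. The reversed ones were Rela with the GC trend removed (-0.72) and with a library set term besides (-0.21), and Tnfaip3 scaled to T cell receptor complex genes (-0.33).

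Members called numbered 0 higher and 1 lower under that scaling, with the GC trend removed and with the set term besides, 2 higher and 1 lower with DESeq2, and 7 higher and 1 lower with limma-voom. Leaving out 1 library gave 0 to 1 higher and 0 to 1 lower. Of all genes, 17 higher and 1862 lower were called under the receptor scaling, 39 higher without a filter on low counts, 613 and 999 with DESeq2, 2562 and 2768 with limma-voom, 116 higher with the set term, 121 and 1033 in numbers 4 to 8 alone, 316 and 79 in numbers 1 to 3 alone, 7 and 121 at a threshold of 0.01, and 1 and 51 without WT replicates 2 and 4. Leaving out 1 library gave 10 to 443 higher and 143 to 1201 lower, both extremes with a WT library left out (replicates 4 and 1). The cause was not tested.

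With a replicate block on the 8 libraries of replicates 1 to 4, 0 genes were higher and 0 lower, against 43 and 244 in the same libraries without it, and at an unadjusted p under 0.05 the block left 2299. Same-numbered libraries deviated with correlations of 0.41, -0.373, -0.377 and 0.387. The libraries also differ with library number and GC content, so these values cannot decide whether the replicate numbers pair the samples. A block by library number (4 libraries) gave 0 higher and 0 lower, with 409 genes at an unadjusted p under 0.05.

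Other named genes reversed 17 times, none past the threshold in either direction. Scaled to the receptor genes, Tnip1 stood at -0.50, Bcl10 at -0.34, Traf1 at -0.34, Traf2 at -0.48 and Irak2 at -0.96. With the GC trend removed, Tnip1 stood at -0.85, Traf2 at -0.027 and Irak2 at -0.19, and with the set term besides, Tnip1 at -0.045 and Ikbkb at 0.048. Ikbkb stood at 0.61 under the library number block, 0.12 with the set term and 1.92 in numbers 1 to 3 alone, and Ltb at -0.15 under that block. Irak2 stood at -0.15 in the 8 libraries without the block and -0.076 without WT replicates 2 and 4. Leaving out 1 library, Irak2 ranged from -0.093 to 1.05.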
